A study of Canis lupus familiaris with 62 samples.

Results

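Dog chromosomes 6 and 24 hold the 1668 genes described here, of 30951 genes in the deposited count table. A gene was included when it lies on either chromosome, has more than 1 exon row in the table and spans less than 500 kb. Chromosome 6 gave 1008 of its 1206 genes and chromosome 24 gave 660 of its 774. Left out were 301 genes with a single exon row and 11 of 500 kb or more. The pair of chromosomes was picked because its genes were, by earlier results of these data, higher in tumours of dogs that had surgery than in tumours of untreated dogs. That difference is therefore described below without a test. At the span limit, the widest tested genes inside it spanned 431854 and 440827 bases, with log2 fold changes of -1.37 and 1.00 for surgical over untreated tumours. The narrowest tested genes outside it spanned 503865 and 511350 bases, with log2 fold changes of 0.17 and -1.73.

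The data are RNA-seq counts from 62 spontaneous canine meningiomas, tumours of the membranes that cover the brain. By the treatment label, 13 dogs had surgery (Sx), 9 surgery and radiotherapy (Sx + RT) and 3 radiotherapy alone (RT). Another 7 had a steroid, 3 an anti-epileptic alone and 27 none. In the steroid group every dog except replicate 4 was labelled steroid/anti-epileptic, so most of its values belong to the combined label. All tumours were formalin-fixed and paraffin-embedded, came from biopsy or post-mortem and were archived between 2011 and 2022, with 1 library per tumour and dogs of several breeds, both sexes and mostly neutered. The labels do not say whether tissue was taken before or after treatment, nor what the letters N and S in sample names stand for. Of the 22 surgical dogs, 21 have an S name. Sx replicate 1 and every dog without surgery have an N name. With 1 such surgical library, the letter and surgery cannot be told apart. Bulk tissue does not separate fewer cells of a type from less RNA per cell, and the tumour label could not be checked against marker genes because the table pairs no identifier with a gene name.

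Genes are spread unevenly along mammalian chromosomes. Gene-dense stretches tend to hold short, GC-rich genes that many tissues use, and gene-poor stretches tend to hold long genes with tissue-restricted expression. Changes in chromosome number and structure are a known feature of meningioma, which is one reason to describe its expression by chromosome.

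Library totals ran from 1967061 to 12063982 counts, with a median of 4190135. Surgical libraries were deeper than untreated ones (median totals of 4843122 and 3850875 counts) and had a lower share of mitochondrial counts (median 9.57% and 12.8%, with ranges of 3.00% to 19.98% and 6.29% to 46.5%). Each read of a pair was counted, so most low counts are even. Among values of 20 or less, the share that was even had a median of 86.6% in surgical libraries (79.3% to 93.9%) and 91.4% in untreated libraries (84.8% to 95.3%), and 1 of 22 surgical libraries lay above the untreated median. A single gene can carry much of a chromosome's count in 1 library. In RT replicate 1, members of chromosome 6 took 13.5% of the non-mitochondrial counts. Of their 592849 counts there, 360665 belonged to the gene ENSCAFG00000024344.

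Of the members, 1188 passed the filter on low counts, 768 on chromosome 6 and 420 on chromosome 24. Another 480 did not, and 114 of these had no count in any library. Their median exon length was 1218 bases. Tested members had a median exon length of 2099.5 bases on chromosome 6 and 2148 on chromosome 24, against 2022.5 for the same kind of gene on the other 36 autosomes. Their genomic span was shorter, with medians of 19069.5 and 21675.5 bases against 24549. Both chromosomes are gene-rich, with 15.6 and 16.3 genes per Mb between the first and the last gene. The density around a gene, counted as other genes of the table within 500 kb to either side, had a median of 25 on chromosome 6 and 21 on chromosome 24, against 17 on the other autosomes.

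Most tested members were slightly higher in surgical than in untreated tumours, and the shift of the typical gene was small. The median log2 fold change was 0.10 on chromosome 6 and 0.09 on chromosome 24, or folds of 1.07 and 1.06, against -0.02 on the other autosomes and -0.02 over all 18370 genes tested. On chromosome 6, 462 of 768 genes (60.2%) lay above the median of all genes, and on chromosome 24, 243 of 420 (57.9%) did; on the other autosomes 49.7% did. The means had the opposite sign to the medians, at -0.10 on each chromosome, against -0.20 on the other autosomes. A tail of strongly lower genes weighed on the mean: 140 members were below -1 on the log2 scale, 102 of them at a mean log2 CPM below 2, and 60 were above 1. Over the 988 members within 1 log2 unit of 0 the mean was 0.11.

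Both directions also appeared among genes called by edgeR at an adjusted p under 0.05. On chromosome 6, 85 genes were called higher and 63 lower, and on chromosome 24, 39 higher and 40 lower. The 124 higher calls are 10.4% of the tested members, beside 6.37% over all genes tested, and the 103 lower calls are 8.67%, beside 10.4% over all genes. The chromosomes were selected on this contrast, so nothing is read from these shares. The higher members changed modestly, with a median log2 fold change of 0.64, whereas the lower members had a median of -2.48.

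Many genes carried the shift, not a few. With all called genes removed, the medians were 0.09 on both chromosomes, and 60.8% and 59.8% of the remaining genes lay above the median of all genes. The same removal on the other autosomes left a median of 0.003 and 52.0% above. Removing the highest genes lowers any median, so the same removal on the other autosomes is given beside it. With the highest 10% of genes of each chromosome removed, the medians were 0.06 and 0.02, against -0.08 on the other autosomes. With the highest 25% removed they were -0.05 and -0.07, against -0.18 on the other autosomes. Members lay above the other autosomes at low and at higher levels. Among members whose mean log2 CPM was 2 or more, the medians were 0.13 and 0.12, against 0.03 on the other autosomes. Among members below that level both were -0.12, against -0.29 on the other autosomes.

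Other chromosomes shared the direction. Ranked by median log2 fold change among 38 autosomes, chromosome 20 came first at 0.14, followed by chromosome 6, chromosome 24 and, at 0.08, chromosome 9. Chromosomes 20 and 9 are also the densest, with median densities of 36 and 32. Across the 38 autosomes the median log2 fold change was higher where the median gene density was higher (Spearman's rho 0.73, Pearson's r 0.69), and its rho with median exon length was 0.12. These are descriptions across chromosomes that share the same libraries. Chromosome 18 departed from this trend, with a density of 31 and a median of -0.03.

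**Figure D1:**
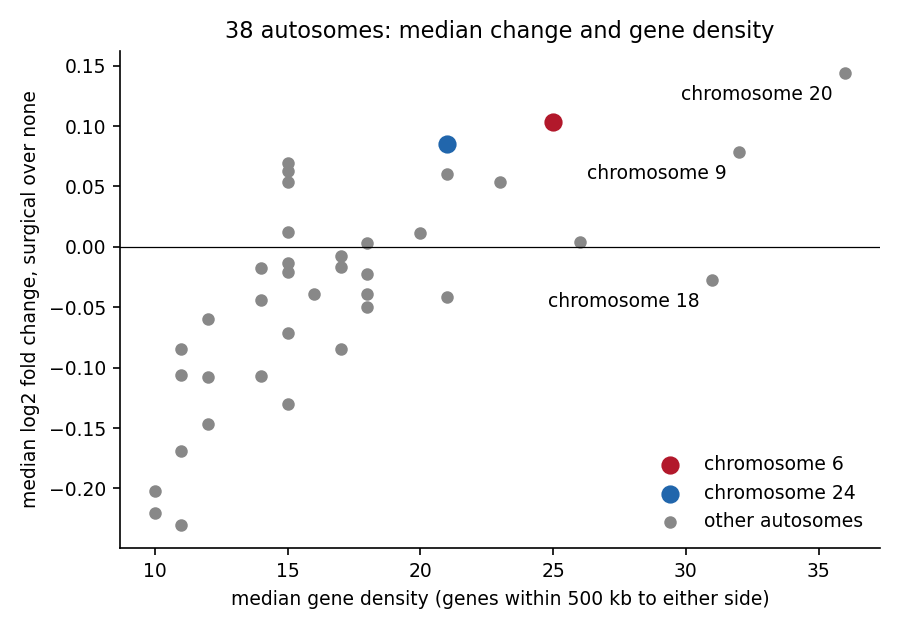
Median log2 fold change of surgical over untreated tumours (y axis) against median gene density in genes within 500 kb to either side (x axis) for 38 autosomes, 1 point per chromosome, over tested genes with more than 1 exon row and a span under 500 kb. Chromosome 6 (0.10) and chromosome 24 (0.09) lie high among chromosomes of like density, and chromosome 20 (0.14) is both the densest and the highest.

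Within the chromosomes, genes with many neighbours had the higher medians. Genes were split into 4 density classes whose limits divide the genes of all autosomes about evenly (up to 11, 12 to 17, 18 to 30, and 31 to 104 neighbours). Chromosome 6 had medians of -0.02, -0.12, 0.12 and 0.24 from the sparsest to the densest class, over 117, 146, 185 and 320 genes. Chromosome 24 had medians of -0.01, -0.05, 0.11 and 0.26 over 66, 81, 182 and 91 genes. The other autosomes had -0.17, -0.07, 0.03 and 0.15 in the same classes. The members' densest and sparsest classes thus differed by 0.26, and those of the other autosomes by 0.32. Across genes, rho with density was 0.24 on chromosome 6, 0.19 on chromosome 24 and 0.21 on the other autosomes.

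Calls followed density too, on these chromosomes and elsewhere. Of the 124 members called higher, 68 were in the densest class and 9 in the sparsest, and of the 103 called lower, 22 were in the densest and 31 in the sparsest. Called higher were 16.5% of the densest and 4.92% of the sparsest members, against 10.4% and 3.85% on the other autosomes. Called lower were 5.35% and 16.9% of the members, against 6.57% and 15.4% on the other autosomes. In the densest class 69.3% of 411 members lay above the median of all genes, against 49.7% of 183 in the sparsest. Chromosome 6 has 41.7% of its tested members in the densest class and chromosome 24 has 21.7%, against 23.2% on the other autosomes. Reads were counted without strand, so a read where opposite genes overlap cannot be assigned to one of them. Among members that overlap no other gene, the densest and sparsest classes differed by 0.12, over 220 and 147 genes, and on the other autosomes by 0.31. Whether shared reads have a part in this was not tested.

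**Figure D2:**
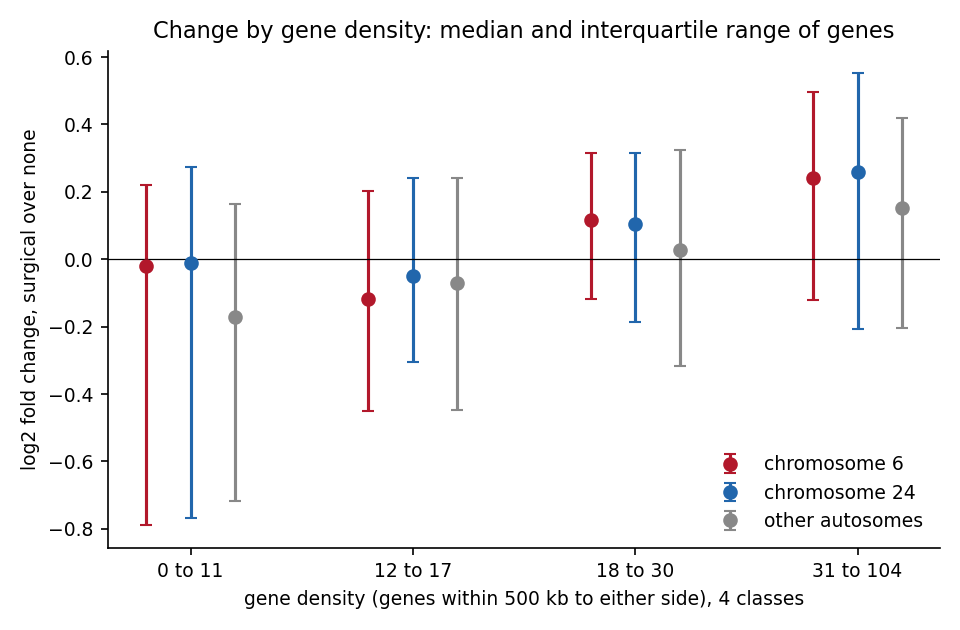
Log2 fold change of surgical over untreated tumours (y axis) in 4 classes of gene density (x axis, genes within 500 kb to either side), with points at the median and bars from the 25th to the 75th percentile of genes, for chromosome 6, chromosome 24 and the other autosomes. In the densest class the medians are 0.24, 0.26 and 0.15, and the bars of all 3 sets overlap between classes.

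By rank correlation the log2 fold change followed exon length less closely than density, but the share called higher rose with both. The rank correlation between exon length and log2 fold change was 0.01 on chromosome 6, 0.03 on chromosome 24 and 0.03 on the other autosomes. In 4 classes of exon length made the same way the members had medians of 0.07 (up to 1254 bases), 0.10, 0.08 and 0.17 (3189 bases or more), and those with the longest exons were also the most abundant, with a median log2 CPM of 5.24 against 2.47 for the shortest class. From the shortest to the longest exons, 4.95%, 7.45%, 11.2% and 17.5% of the members were called higher, against 3.39%, 5.09%, 6.90% and 10.7% on the other autosomes. Lower calls were also fewest in the shortest class, at 5.30%, 9.22%, 10.6% and 9.24% of the members. On the other autosomes they were 7.97%, 11.6%, 10.7% and 11.6%. Members called higher had a median exon length of 2831 bases and a median log2 CPM of 5.43, against 2003 bases and 3.61 for members not called. Within the densest class, the 195 members with longer exons had a median of 0.29 and the 216 with shorter exons 0.17. In the sparsest class the values were 0.02 and -0.03. The genomic span, which includes introns, ran the other way: members up to 7929 bases had a median of 0.17, and members of 64933 bases or more had -0.03, with 17.2% of those 232 called lower and 9.91% higher. On the other autosomes 14.7% of such long genes were called lower and 5.94% higher.

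Along the chromosomes (positions on CanFam3.1), crowded stretches had the higher medians more often than sparse ones. In windows of 2 Mb with at least 5 tested members, 33 of 53 had a median above that of all genes, 18 of 30 on chromosome 6 and 15 of 23 on chromosome 24. Among the 22 windows with 20 or more tested members, 20 lay above it, and among the 31 smaller windows 13 did.

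On chromosome 6 the stretch from 38 to 40 Mb had the highest median, 0.33. It is also the most crowded, with 131 genes, 116 members and 93 tested, of which 17 were called higher and 7 lower. Over all genes tested 6.37% were called higher and 10.4% lower, and in the densest class of the other autosomes 10.4% and 6.57%. The mean deviation of this stretch per library (log2 CPM minus each gene's mean over all libraries) ran from -0.22 to 0.60 with a median of 0.17 in surgical tumours. In untreated tumours it ran from -0.65 to 0.19 with a median of -0.16. The groups overlapped, and 20 of 22 surgical libraries were above the untreated median. This stretch was picked as the highest in these same libraries, so the count only describes it. The stretches from 8 to 10 Mb (52 tested) and from 6 to 8 Mb (40 tested) followed, with medians of 0.28 and 0.22.

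On chromosome 24 the last stretch, from 46 to 48 Mb, had a median of 0.29 over 50 tested genes. Of these, 14 were called higher and 4 lower, beside 6.37% and 10.4% of all genes tested. The library deviations of this stretch ran from -0.24 to 0.54 with a median of 0.08 in surgical tumours. In untreated tumours they ran from -0.66 to 0.48 with a median of -0.19. In this stretch, picked the same way, 20 of 22 surgical libraries were above the untreated median. The stretch from 40 to 42 Mb had 0.26 over 9 tested genes, and that from 20 to 22 Mb 0.24 over 29.

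The lowest windows were sparse. On chromosome 24, the stretch from 12 to 14 Mb had a median of -2.77 over 7 tested genes, and its library deviation was above the untreated median in 2 of 22 surgical libraries. The stretch from 44 to 46 Mb had -1.45 over 6 genes. On chromosome 6, the stretch from 50 to 52 Mb had -1.47 over 8 genes and that from 58 to 60 Mb had -0.40 over 13. Such windows were picked as the lowest in these libraries, and their medians rest on few genes each. These medians lay further from 0 than that of any crowded window. The tested genes of those on chromosome 24 were also weakly expressed, with median log2 CPM of 0.92 and 1.32. Those on chromosome 6 had 3.47 and 3.53.

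**Figure D3:**
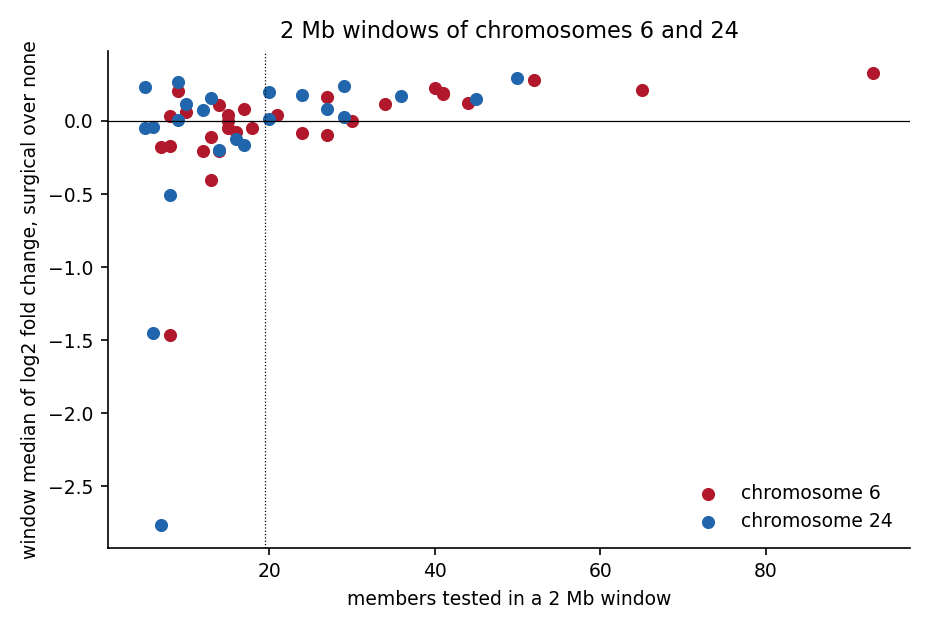
Median log2 fold change of surgical over untreated tumours (y axis) against the number of tested members (x axis) in 53 windows of 2 Mb on chromosomes 6 and 24, 1 point per window with at least 5 tested members. Right of the dotted line, at 20 or more members, 20 of 22 windows lie above the median of all genes, and the lowest window, at -2.77, holds 7 tested members.

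Scored per library, the chromosomes differed between groups by less than the spread within them. The score is the mean deviation of a chromosome's tested members less the same mean over all autosomal genes of this kind, in log2 units. For chromosome 6 surgical tumours averaged 0.05 ± 0.13 (SD, n = 22) and untreated tumours -0.05 ± 0.15 (SD, n = 27), with 15 of 22 surgical libraries higher than the untreated median. Surgical scores ran from -0.18 to 0.36 with a median of 0.04, and untreated scores from -0.58 to 0.12 with a median of -0.03. Untreated replicates 7 and 21, at -0.50 and -0.58, lay far below the other untreated libraries, of which the lowest was -0.09. Both weigh on the untreated mean and SD. For chromosome 24 surgical tumours averaged 0.04 ± 0.10 (SD, n = 22) and untreated tumours -0.03 ± 0.08 (SD, n = 27), with 17 of 22 surgical libraries above the untreated median. Among name numbers of 16 or below the chromosome 6 score averaged 0.04 in surgical and -0.04 in untreated tumours, and the chromosome 24 score 0.05 and -0.04. Among 17 or above these were 0.05 and -0.06 for chromosome 6, and 0.04 and 0.01 for chromosome 24. Both scores were above their untreated medians in 12 of 22 surgical libraries, 5 of 13 Sx and 7 of 9 Sx + RT, and in 7 of 27 untreated libraries.

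The contrast of dense against sparse members separated the libraries more. This score, the densest class's mean deviation less that of the sparsest, was 0.25 ± 0.26 (SD) over the 22 surgical tumours and -0.12 ± 0.23 (SD) over the 27 untreated ones. It ran from -0.24 to 0.76 with a median of 0.21 in surgical and from -0.61 to 0.24 with a median of -0.11 in untreated libraries. The lowest surgical score, -0.24, was that of Sx replicate 1, the only surgical library with an N name. It was also the only surgical library not above the untreated median. A single library does not separate the letter from surgery. The ranges overlapped, with 21 of 22 surgical libraries above the untreated median and 8 above the highest untreated library. For the other autosomes the same score was 0.21 ± 0.19 in surgical and -0.11 ± 0.16 in untreated tumours (SD). There 21 of 22 surgical libraries lay above the untreated median and 14 above the highest untreated library. The contrast was therefore not restricted to these chromosomes. The chromosomes were chosen for their difference with surgery in these libraries, so the counts for members only describe them. Among name numbers of 16 or below the 9 surgical tumours had 0.24 ± 0.21 and the 18 untreated ones -0.14 ± 0.25 (SD). Among numbers of 17 or above the 13 surgical tumours had 0.26 ± 0.29 and the 9 untreated ones -0.10 ± 0.20 (SD). The labels do not say what the name number is.

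The dense-minus-sparse score also moved with library measures inside each group. Across the 22 surgical libraries it had a Pearson's r of 0.55 with the total count (permutation p 0.00813, adjusted 0.0325) and a Spearman's rho of 0.58 (permutation p 0.00559, adjusted 0.0236). Its r with the even share was -0.25 there (permutation p 0.268, adjusted 0.459), with rho -0.39 (permutation p 0.0705, adjusted 0.155). Across the 27 untreated libraries, where treatment plays no part, its r with the even share was -0.65 (permutation p 0.000270, adjusted 0.00324), with rho -0.67 (permutation p 0.000230, adjusted 0.00276). With the total count it was 0.49 (permutation p 0.00725, adjusted 0.0325), with rho 0.46 (permutation p 0.0172, adjusted 0.0517).

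All p-values of these relations are 2-sided, from permutation tests with 100000 resamples and adjusted by Benjamini-Hochberg over 12 relations. Without the 2 libraries farthest from the median of the library measure, r in surgical libraries was 0.52 for the total count and -0.47 for the even share. In untreated libraries it was -0.64 for the even share and 0.36 for the total count. Within surgical name numbers of 16 or below and of 17 or above, r with the even share was -0.82 (n = 9) and -0.10 (n = 13). Within untreated name numbers of 16 or below and of 17 or above, r with the even share was -0.71 (n = 18) and -0.57 (n = 9). The scores of chromosomes 6 and 24 themselves had no relation with either measure in untreated libraries that passed 0.05 after adjustment. There r lay between -0.12 and 0.12, rho with the even share was -0.32 and -0.35, and rho with the total count was 0.21 and 0.24. Without the 2 farthest libraries, r of the chromosome 24 score with the even share was -0.41. In surgical libraries only the rank correlation of the chromosome 24 score with the total count did (rho 0.58, permutation p 0.00591, adjusted 0.0236), and its r was 0.33 (permutation p 0.131, adjusted 0.314). With the even share as a covariate in the fit, the members' densest and sparsest classes differed by 0.19 in surgical over untreated tumours, and the members called higher and lower numbered 19 and 22. The share called over all genes with this covariate is not given here. In that fit the median of chromosome 6 less that of all genes was 0.06, against 0.12 without the covariate, and that of chromosome 24 was 0.10, against 0.10. What part these measures have in the difference was not tested.

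**Figure D4:**
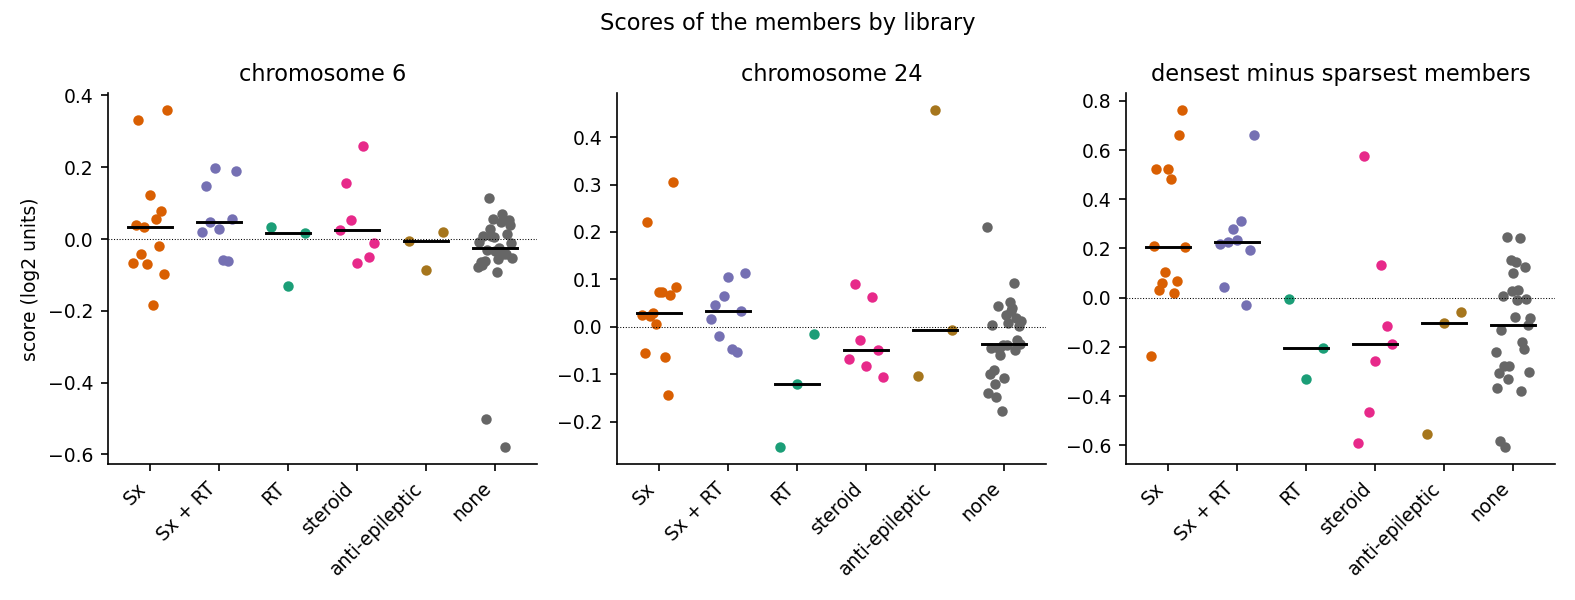
Scores in log2 units (y axis) of chromosome 6, chromosome 24 and the densest minus the sparsest members, with groups on the x axis, 1 point per library and a black line at each group's median. In the right panel 21 of 22 Sx and Sx + RT libraries lie above the median of the 27 untreated libraries, and the groups overlap in all 3 panels.

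For each chromosome, 1 higher and 1 lower member are shown, the most changed among called genes whose mean log2 CPM reaches 1 and whose group medians differ by 0.5 or more. Without these limits called changes reached 3.35 on chromosome 6, and 3.73 and -6.26 on chromosome 24. The groups overlapped for each of the 4 genes shown. Identifiers are given because no name or function could be assigned. ENSCAFG00000020276, on chromosome 6 from 62443675 to 62445994 (minus strand, 1309 exonic bases, 12 neighbours), had from 37.9 to 1302 CPM with a median of 246 in surgical tumours, against 11.1 to 86.3 CPM with a median of 46.5 in untreated tumours. It exceeded the highest untreated library in 17 of 22 surgical libraries. Its log2 fold change was 3.05 (SE 0.333). In the other treated groups medians were 28.4 CPM with RT, 33.7 with steroid and 20.8 with an anti-epileptic, and the highest library, at 99.3 CPM, was an anti-epileptic one.

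ENSCAFG00000029530, on chromosome 6 from 75580515 to 75964156 (minus strand, 4809 exonic bases, 11 neighbours), was lower in surgical tumours by a log2 fold change of -4.57 (SE 0.809). It had a median of 1.55 CPM and at most 17.5 in surgical libraries, against a median of 9.76 and at most 499 in untreated libraries. Untreated libraries spread widely, and 1 of 22 surgical libraries was above their median. In the RT group its values were 0.47, 196 and 212 CPM.

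ENSCAFG00000012011, on chromosome 24 from 42204823 to 42294653 (minus strand, 2609 exonic bases, 23 neighbours), had a log2 fold change of 1.72 (SE 0.548) and overlaps another gene of the table, so its reads may be shared. Its median was 8.89 CPM in surgical tumours, with a range up to 144 and 2 libraries at 0, against 5.39 in untreated tumours, with a range up to 28.9 and 1 library at 0. Within name numbers of 16 or below its direction turned, at -0.72. ENSCAFG00000005173, on chromosome 24 from 1925013 to 1935874 (plus strand, 2490 exonic bases, 9 neighbours), had a log2 fold change of -4.08 (SE 0.741). It had no count in 14 of 22 surgical libraries and at most 4.04 CPM in the others, against 5 of 27 untreated libraries without a count, a median of 5.68 CPM and a highest value of 43.97. Over 59 alternative fits the log2 fold change of ENSCAFG00000020276 ran from 1.67 to 3.39 and its call was lost in 1. ENSCAFG00000029530 ran from -5.11 to -2.49 and ENSCAFG00000005173 from -6.95 to -2.81, with the call of each lost in 2. ENSCAFG00000012011 ran from -0.72 to 2.74 and lost its call in 5: limma voom, the fit with the even share, both ranges of name numbers and, at 1.55, without Sx + RT replicate 3.

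**Figure D5:**
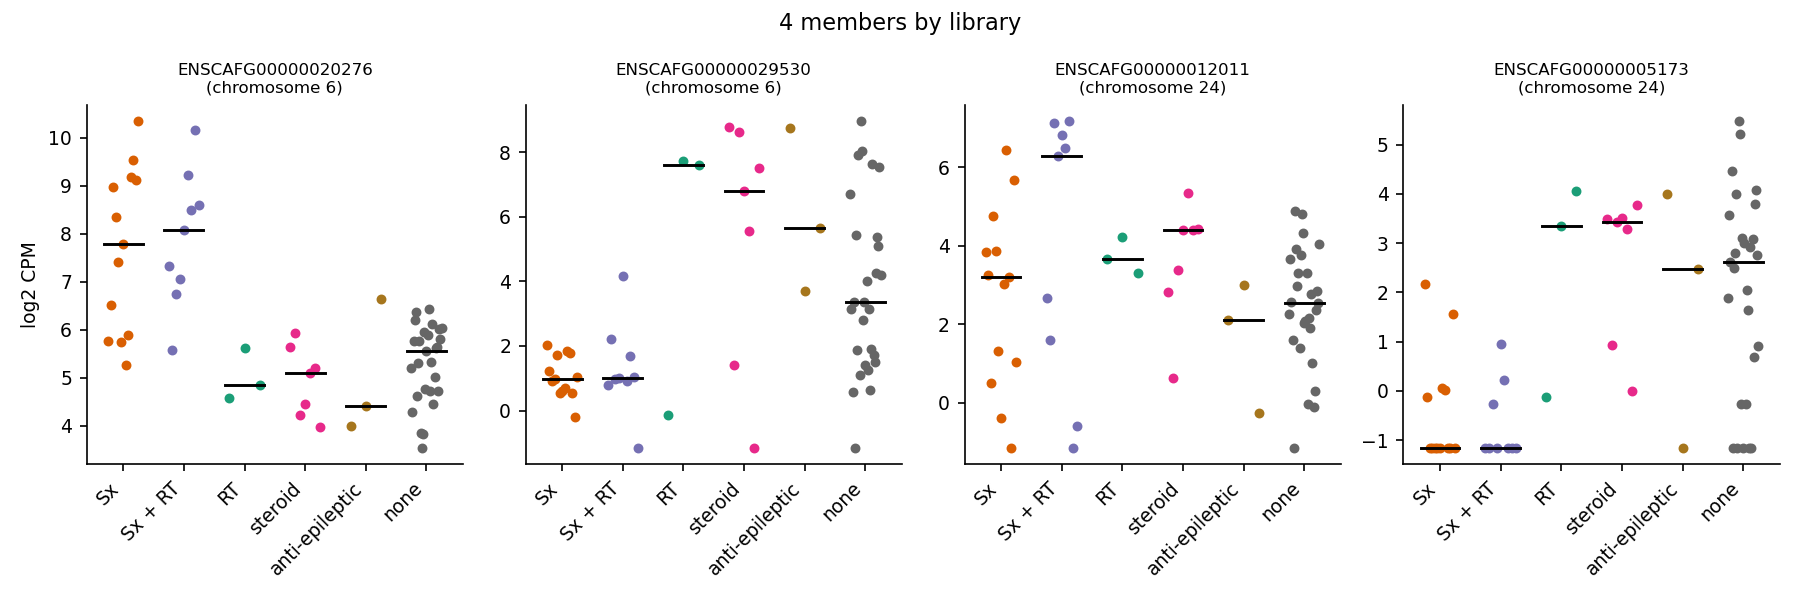
Log2 CPM (y axis) of 4 members by group (x axis), 1 point per library with a black line at the group median, with points at -1.16 standing for libraries without a count. ENSCAFG00000020276 is higher in most Sx and Sx + RT libraries than in untreated ones, ENSCAFG00000029530 and ENSCAFG00000005173 are mostly lower, and ENSCAFG00000012011 overlaps widely between groups.

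Adding radiotherapy to surgery was compared within surgical dogs, a contrast the choice of chromosomes did not use. With 9 Sx + RT against 13 Sx tumours, 0 members were called by edgeR at an adjusted p under 0.05, beside 0.0109% of all genes tested. At an unadjusted p under 0.05 there were 31 members (2.61%), beside 5.11% of all genes. DESeq2 called 2 members, beside 0.213% of all genes, and limma voom called 0, beside 0.0163%. The median log2 fold change was -0.01 on chromosome 6 and -0.09 on chromosome 24, against -0.04 over all genes. Densest and sparsest members differed by 0.09, and those of the other autosomes by 0.10.

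Radiotherapy alone, steroid and anti-epileptic treatment were each set against the same 27 untreated tumours that served for surgery, so these values are not independent of the one above. Radiotherapy alone (n = 3) gave medians of -0.05 on chromosome 6 and -0.10 on chromosome 24, against -0.06 over all genes. Steroid treatment (n = 7), mostly together with an anti-epileptic, gave 0.16 and 0.03, against 0.03. Anti-epileptic treatment (n = 3) gave -0.03 and 0.20, against -0.05, and 1 of its 3 libraries had a chromosome 24 score of 0.46 while the others had -0.10 and -0.01. Densest and sparsest members differed by -0.01 with RT, 0.06 with steroid and -0.01 with anti-epileptic treatment, against 0.26 with surgery.

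With RT, 7 members rose and 0 fell by edgeR at an adjusted p under 0.05, 6 of them on chromosome 6, or 0.589% of tested members beside 0.425% of all genes called higher and 0.0109% called lower. Each of the 7 was highest in RT replicate 1. ENSCAFG00000024344, on chromosome 6 from 40646351 to 40718462 (plus strand, 2897 exonic bases), had 84535, 0 and 176 CPM in the 3 RT libraries, against a median of 0.385 CPM and at most 279 in untreated libraries. That library alone set its log2 fold change of 10.14 (SE 1.80, edgeR adjusted p 0.000553, between 1.59e-05 and 0.972 over its alternatives). ENSCAFG00000016479, on chromosome 6 from 15412556 to 15422004 (plus strand, 5013 exonic bases), had 125, 3.48 and 4.44 CPM with RT, against a median of 9.32 and at most 23.9 in untreated libraries. Its log2 fold change was 2.28 (SE 0.506, edgeR adjusted p 0.0109, between 0.000633 and 0.963 over its alternatives). Without RT replicate 1 no member was called, and the log2 fold changes of these genes were 1.83 and -1.17.

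With steroid, 8 members rose and 0 fell (edgeR adjusted p under 0.05), 5 on chromosome 6 and 3 on chromosome 24, or 0.673% of tested members beside 0.256% of all genes called higher. Of the 8, 7 were highest in steroid replicate 5, a library with 46.7% mitochondrial counts. ENSCAFG00000020270, on chromosome 6 from 61931900 to 62316899 (plus strand, 5335 exonic bases), had a median of 15.6 CPM with steroid and 454 CPM in that library, against a median of 3.19 and at most 22.9 in untreated tumours. Its log2 fold change was 3.45 (SE 0.733, edgeR adjusted p 0.0195, between 0.00527 and 0.811 over its alternatives). ENSCAFG00000017174, on chromosome 6 from 18343016 to 18385112 (plus strand, 4076 exonic bases), ran from 208 to 966 CPM with a median of 236 with steroid, against 146 to 312 with a median of 204 in untreated tumours. All 7 steroid libraries were above the untreated median, and its log2 fold change was 0.75 (SE 0.148, edgeR adjusted p 0.0101, between 0.000935 and 0.690 over its alternatives). Both genes overlap another gene of the table. Without steroid replicate 5 no member was called, and none was called when only steroid and untreated tumours entered the fit.

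Between female and male dogs 0 members were called by edgeR at an adjusted p under 0.05, beside 0.049% of all genes. DESeq2 and limma voom also called 0 members, beside 0.0601% and 0.0327% of all genes. At an unadjusted p under 0.05 there were 113 members (9.51%), beside 8.26% of all genes. The median log2 fold change of female over male dogs was -0.06 on chromosome 6 and -0.05 on chromosome 24, against 0.00 over all genes, while the means were 0.00 and 0.03. Densest and sparsest members differed by -0.11, and those of the other autosomes by -0.07.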

How the data were processed

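Total RNA from paraffin sections was sequenced as read pairs, per the labels' protocols. The deposited table holds raw counts per gene, which the authors made with featureCounts 2.0.4, per the file headers. Exons came from Ensembl release 100 on CanFam3.1, strand was ignored, primary alignments were used and each read of a pair was counted. STAR and DESeq2 are named in the submitters' processing notes, with versions not given in the sources used here. Exon length is the deposited length column, per the file headers. The name table at hand (UU_Cfam_GSD_1.0) matched 0 identifiers, so marker lists were not analysed and no gene is named by symbol.

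Each library is 1 tumour of 1 dog, grouped by the treatment label. Replicate numbers follow accession order and mark no pairs. Over 1891 library pairs the smallest chi-square per gene was 11.8, so no library appears more than once. From the counts, genes were filtered with filterByExpr (minimum count 10, by treatment group), scaled by TMM (factors 0.557 to 1.24) and fitted with edgeR 4.0.16 quasi-likelihood models (common dispersion 0.627) in R 4.3.3. All 62 libraries entered 1 fit with treatment group, sex and neuter status as terms. Benjamini-Hochberg adjustment ran over 18370 genes. Surgery is the mean of Sx and Sx + RT. Log2 CPM used a prior count of 2. The fit was tested on simulated data. Alternatives were DESeq2 1.42.0, limma 3.58.1 voom, other scaling, filter, covariates and samples, and leaving out libraries. Intervals are not given for shares, and standard errors cover the spread between libraries.

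The members, lists and tests were chosen with earlier results of these data known. For each chromosome, the text names the member with the largest and the one with the smallest log2 fold change for surgery among called genes (adjusted p under 0.05) whose mean log2 CPM reaches 1 and whose group medians differ by 0.5 or more in the same direction. For each other comparison it names the called members with the largest and the smallest log2 fold change at that level. Windows named are, per chromosome, the 3 highest and the 2 lowest.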

Additional observations from a re-analysis of the deposited data

Results flagged for a closer look

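Single libraries stood far from the rest of their group in 4 of 22 groups examined. The genes examined were named from calls in these same libraries, and the groups share libraries. The count is therefore a description and is not set against a chance rate. The dense-minus-sparse score of Sx + RT replicate 9 was 0.66, the highest of 9 libraries. The log2 CPM of ENSCAFG00000024344 in steroid replicate 7 was 5.80, the highest of 7 libraries, of which 4 had no count. The log2 CPM of ENSCAFG00000017174 was 9.92 in steroid replicate 5, the library that was highest for 7 of the 8 members called with steroid, and 8.46 in Sx + RT replicate 4.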

How the results depend on the processing

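The medians of chromosomes 6 and 24 less that of all genes, 0.12 and 0.10 for surgery, stayed above 0 in every alternative run. The chromosomes were chosen for this difference in the same libraries, so its persistence over these fits is no test of it. Chromosome 6 ran from 0.06 (even share as a covariate) to 0.14 and chromosome 24 from 0.06 (no filter) to 0.14. The members' dense-minus-sparse difference, 0.26, stayed between 0.12 (members without overlap) and 0.29 (without Sx replicate 1). Leaving out 1 library gave 97 to 147 higher and 84 to 118 lower members, with the most of both without Sx replicate 1. With the even share as a covariate there were 19 higher and 22 lower, with limma voom 63 lower, among name numbers of 17 or above 2 and 2, and among 16 or below 0 and 0. No share over all genes is given here for these fits. The counts therefore do not show whether their changes are particular to the members. ENSCAFG00000012011 reversed among 16 or below, at -0.72.

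For Sx + RT against Sx, DESeq2 called 2 members, and no filter or fewer covariates gave 1. Leaving out 1 library gave 0 to 1, with 1 without Sx + RT replicate 4, 8 or 9. For RT the 7 calls became 14 without a filter and 3 with only the groups compared, and 0 to 15 with 1 library left out (0 without RT replicate 1, 15 without RT replicate 3). ENSCAFG00000016479 ran from -1.17 without RT replicate 1 to 2.83 without RT replicate 2, and was -0.32 by limma voom. DESeq2 gave no p for ENSCAFG00000024344 in 1 case. For steroid the 8 calls became 19 by DESeq2, 16 without a filter, 15 with fewer covariates, 4 with the even share and 0 with only the groups compared. Leaving out 1 library gave 0 (without steroid replicate 5) to 18 (without replicate 6), with 13, 14 and 17 without replicates 1, 2 and 4, and 5 without untreated replicate 3, 6 or 15. For sex, 8 members were called without a filter, and 0 to 1 with 1 library left out (1 without untreated replicate 17). For most of these fits no share over all genes is given here. Whether the changes in calls are particular to the members therefore cannot be read from them, and their cause was not tested. No paired analysis was possible because the labels carry no replicate numbers.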
